A study of Homo sapiens with 9 samples.

Results

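The nuclear genes for subunits of the mitochondrial respiratory chain were followed across 3 populations of blood-forming cells. They were taken by symbol from the count table: names of the NDUFA, NDUFB, NDUFC, NDUFS and NDUFV series, SDHA to SDHD, names that begin with UQCR, and the COX4 to COX8 series. This gave 66 of the 21229 genes, 36 for complex I, 4 for complex II, 9 for complex III and 17 for complex IV. No name that begins with ATP5 matched, so complex V subunits were not analysed here. NDUFA4 and NDUFA4L2 carry complex I names but are placed with complex IV, where the NDUFA4 protein is now known to sit.

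RNA was sequenced from hematopoietic cells that had been differentiated from H1, an established human embryonic stem cell line. There were 3 libraries in each of 3 groups: cells of control genotype positive for the surface antigen CD38, cells of control genotype positive for CD90, and CD90+ cells with overexpression of the transcription factor GATA2 (GATA2-OE below). All of them came from the same line, and the labels do not give the vector, the culture day or whether the replicates were cultured separately. The p-values thus reflect variation among these 9 libraries only, and that variation may be technical. In bulk RNA of this kind, fewer cells of a type and less RNA per cell cannot be told apart.

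Libraries held 42695005 to 45561088 gene counts in the CD38+ controls, 42577569 to 47261093 in the CD90+ controls and 37500192 to 39582736 in GATA2-OE. Levels are CPM, counts scaled to a common library size after TMM scaling, a method that sets the middle of the genes' ratios equal between libraries. GATA2 itself was at 550.8 to 581 CPM in the CD38+ controls, 85.9 to 89.5 in the CD90+ controls and 363 to 388 in the GATA2-OE libraries, above the CD90+ controls and below the CD38+ controls in every library. CD38 was at 119 to 124 CPM, 4.09 to 4.81 CPM and 1.74 to 2.76 CPM in the same order. THY1, the gene for CD90, had 0 counts in the 3 CD38+ control libraries and 2.80 to 5.09 CPM in the 6 CD90+ libraries.

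The respiratory chain passes electrons from NADH and succinate to oxygen and uses the energy to move protons across the inner mitochondrial membrane. Complex I oxidises NADH, complex II oxidises succinate, complex III hands electrons from ubiquinol to cytochrome c, and complex IV reduces oxygen. A few catalytic subunits are made inside the mitochondrion from its own DNA, and the rest, described here, are nuclear genes whose proteins are imported. Blood stem cells are known for leaning on glycolysis and for raising mitochondrial activity as they leave quiescence. Promoters of many such nuclear genes carry sites for NRF1, for ETS factors such as GABP (NRF2) and for YY1, which are known regulators of mitochondrial genes.

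A set of 5 promoters is shown first, since the genes differ in how they moved and in which of these sites they hold. RefSeq promoter sequence (GRCh38.p14) was matched for 54 of the 66 genes. Each stretch runs 5′ to 3′ from 250 bases before the RefSeq start to 29 after it. SDHB (chr1:17054003-17054282, minus strand) encodes the iron-sulfur subunit of complex II and holds all 3 motifs. NDUFB4 (chr3:120596086-120596365, plus strand) encodes an accessory subunit of complex I and had the largest rise with GATA2 overexpression. NDUFS7 (chr19:1383657-1383936, plus strand) encodes the complex I core subunit next to the ubiquinone site. COX5B (chr2:97645812-97646091, plus strand) encodes a zinc-binding subunit of complex IV. NDUFA4L2 (chr12:57240733-57241012, minus strand) encodes the hypoxia-induced paralogue of NDUFA4, fell in every comparison and holds none of the 3 motifs. Capitals mark matches to CCGGAAG (the ETS motif), GCATGCGC (the NRF1 motif) or AAGATGGC (the YY1 motif), read on either strand. In NDUFB4 the capitals are 2 overlapping NRF1 matches on opposite strands.
SDHB: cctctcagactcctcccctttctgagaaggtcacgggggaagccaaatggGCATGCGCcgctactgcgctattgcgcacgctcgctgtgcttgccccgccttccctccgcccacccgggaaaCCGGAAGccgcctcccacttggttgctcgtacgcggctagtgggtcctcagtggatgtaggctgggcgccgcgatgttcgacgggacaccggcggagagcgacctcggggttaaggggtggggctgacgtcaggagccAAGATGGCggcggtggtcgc
NDUFB4: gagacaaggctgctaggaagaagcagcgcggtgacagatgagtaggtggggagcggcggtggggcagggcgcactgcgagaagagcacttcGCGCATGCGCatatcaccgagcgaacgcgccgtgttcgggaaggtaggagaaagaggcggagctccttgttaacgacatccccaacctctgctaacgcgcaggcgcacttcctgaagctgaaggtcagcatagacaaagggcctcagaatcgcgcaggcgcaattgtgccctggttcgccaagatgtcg
NDUFS7: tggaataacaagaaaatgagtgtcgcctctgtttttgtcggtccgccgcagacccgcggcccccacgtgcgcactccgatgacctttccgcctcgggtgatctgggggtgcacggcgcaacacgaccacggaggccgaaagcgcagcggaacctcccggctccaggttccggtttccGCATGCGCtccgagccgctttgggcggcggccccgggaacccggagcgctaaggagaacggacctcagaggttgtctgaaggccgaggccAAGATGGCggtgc
COX5B: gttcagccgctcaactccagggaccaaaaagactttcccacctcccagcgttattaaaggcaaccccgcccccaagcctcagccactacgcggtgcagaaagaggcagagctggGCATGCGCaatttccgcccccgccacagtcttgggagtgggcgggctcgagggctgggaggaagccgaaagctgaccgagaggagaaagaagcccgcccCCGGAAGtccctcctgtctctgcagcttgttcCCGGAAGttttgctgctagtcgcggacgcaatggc
NDUFA4L2: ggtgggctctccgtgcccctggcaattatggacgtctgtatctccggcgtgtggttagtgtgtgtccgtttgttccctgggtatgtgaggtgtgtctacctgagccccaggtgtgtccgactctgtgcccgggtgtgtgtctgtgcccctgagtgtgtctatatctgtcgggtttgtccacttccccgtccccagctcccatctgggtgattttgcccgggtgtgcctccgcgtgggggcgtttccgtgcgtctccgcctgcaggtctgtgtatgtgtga

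Over whole windows of 300 bases, the ETS motif was found in 15 of 54 promoters of the set (27.8%), against 10.3% of 35116 RefSeq promoters. These 35116 were not limited to genes of the count table or to expressed genes, so they are an unlike background for the set. The NRF1 motif was in 9 (16.7%, against 3.05%) and the YY1 motif in 8 (14.8%, against 2.89%). At least 1 of the 3 was in 25 promoters (46.3%, against 14.9%), and 2 or more were in 6 (11.1%, against 1.22%). Every one of the 8 YY1 matches lay 10 to 25 bases after the start, as in SDHB and NDUFS7, whereas 46.7% of all promoters with this motif had it within the first 30 transcribed bases. For NRF1 the lean was the other way, with 3 of 9 promoters of the set holding a match from -100 to 29 against 67.8% of all promoters with the motif. For ETS 13 of 15 did, against 70.6%. ETS matches lay between -157 and 2 and NRF1 matches between -218 and -2.

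Motifs of other factors were closer to the background. The GC box GGGCGG was in 59.3% of the 54 promoters against 45% of all, the E-box CACGTG in 7.41% against 7.26%, and the GATA motif AGATAA in 9.26% against 10.3%. The windows were also slightly richer in G and C, with a median of 61.0% against 58.7%. These shares describe letters in a window, and a match was not tested as a binding site. Fold changes of genes with and without a match are given as medians, and their difference was not tested. With GATA2 overexpression the median log2 change against CD90+ control was 0.82 for the 15 genes with an ETS match and 0.76 for the 38 tested genes without, and 0.80 for the 9 with an NRF1 match and 0.78 for the 44 without. For the YY1 motif the medians were 0.61 for 8 genes and 0.81 for 45. In CD90+ against CD38+ control they were -0.33 with and -0.32 without an ETS match, -0.45 and -0.27 for NRF1, and -0.18 and -0.35 for YY1.

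Levels between genes were compared as TPM, per length of the joined exons of a gene's basic GENCODE 29 transcripts. This is not the length of 1 transcript, and it ran from 507 bases for COX8A to 13566 for SDHC. Genes with much annotated exon sequence can thus read low. Complex IV genes had the highest median in each group, 367 TPM in the CD38+ controls, 481 in the CD90+ controls and 597 in GATA2-OE cells, against 110 TPM, 148 TPM and 187 TPM for complex I. Complex II lay at 144, 196 and 221 TPM and complex III at 257, 229 and 319 TPM. COX6A1, an accessory subunit of complex IV, was the most abundant per length in each group (1759.8, 1593 and 2450.0 TPM). UQCRH, the hinge subunit beside cytochrome c1, was the highest of complex III (1063, 1127 and 1694 TPM). NDUFS5, on the intermembrane face of complex I, had 715, 1062 and 1742 TPM. Subunits present once per complex thus differed widely in TPM, from 1.85 for NDUFA13 to 1062 for NDUFS5 in CD90+ control. The annotated exon length enters each such comparison between genes and complexes. The lowest of these levels are also uncertain for reasons of annotation given further on.

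**Figure D1:**
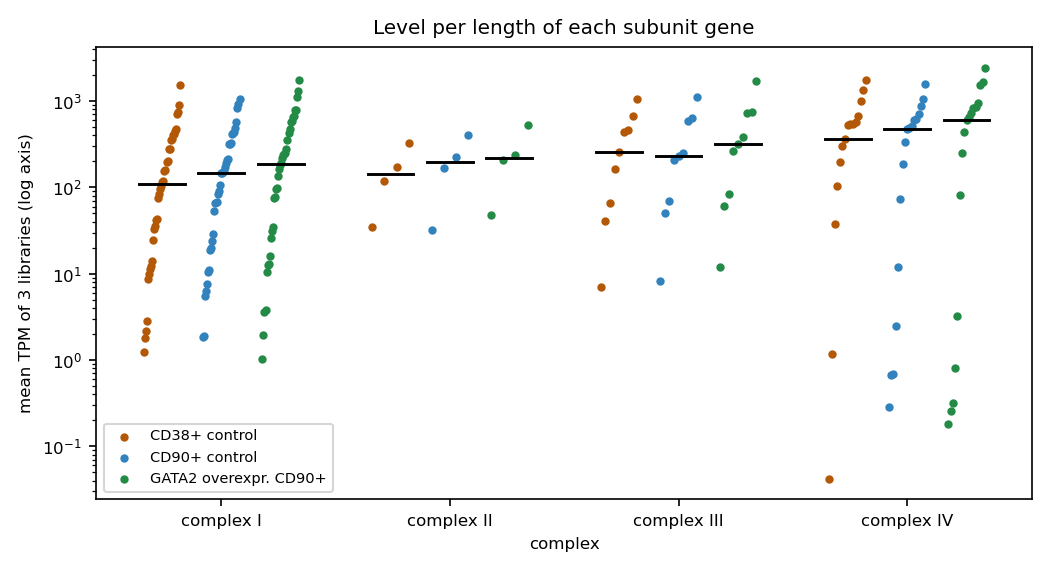
Mean TPM of 3 libraries for each subunit gene on a log axis, by complex (x axis) and group (colour), with black bars at the medians; genes at 0 in a group are not drawn. The complex IV medians are the highest in each group, at 367, 481 and 597 TPM, and the complex IV cloud alone reaches below 1 TPM.

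GATA2 overexpression was compared with control among CD90+ cells, where 65 of the 66 genes had enough counts to be tested. Of these, 57 rose and 3 fell, and 5 did not pass (edgeR quasi-likelihood test, Benjamini-Hochberg adjusted p under 0.05). Over all 16232 tested genes 77.6% were called, 38.0% higher and 39.6% lower. The subunits' median log2 change was 0.77, against -0.04 for all genes. Abundant genes as a class leaned the same way: among 4220 genes with a mean of at least 50 CPM, 63.6% were called higher and 29.0% lower with a median of 0.32, whereas all 49 subunits of that abundance rose, with a median of 0.82.

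The rise covered all 4 complexes analysed. It was called in 32 of 36 genes of complex I (median log2 change 0.80), 4 of 4 of complex II (0.69), 9 of 9 of complex III (0.68) and 12 of 16 tested of complex IV (0.77). It reached 1.5-fold in 49 genes and 2-fold in 9, but the share of all genes past these folds was not computed. Scaling by library size alone moved the median to 0.52 and removing a trend with exon length and GC content moved it to 0.58. Of all genes called, 49.0% were higher with TMM and 35.5% with library size alone. The 3 genes that fell were NDUFA4L2, COX4I2 and COX6B2, all of complex IV in this fit; the number lower was 1 without GATA2-OE library 1 and 5 without GATA2-OE library 3, while 57 rose in each case.

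**Figure D2:**
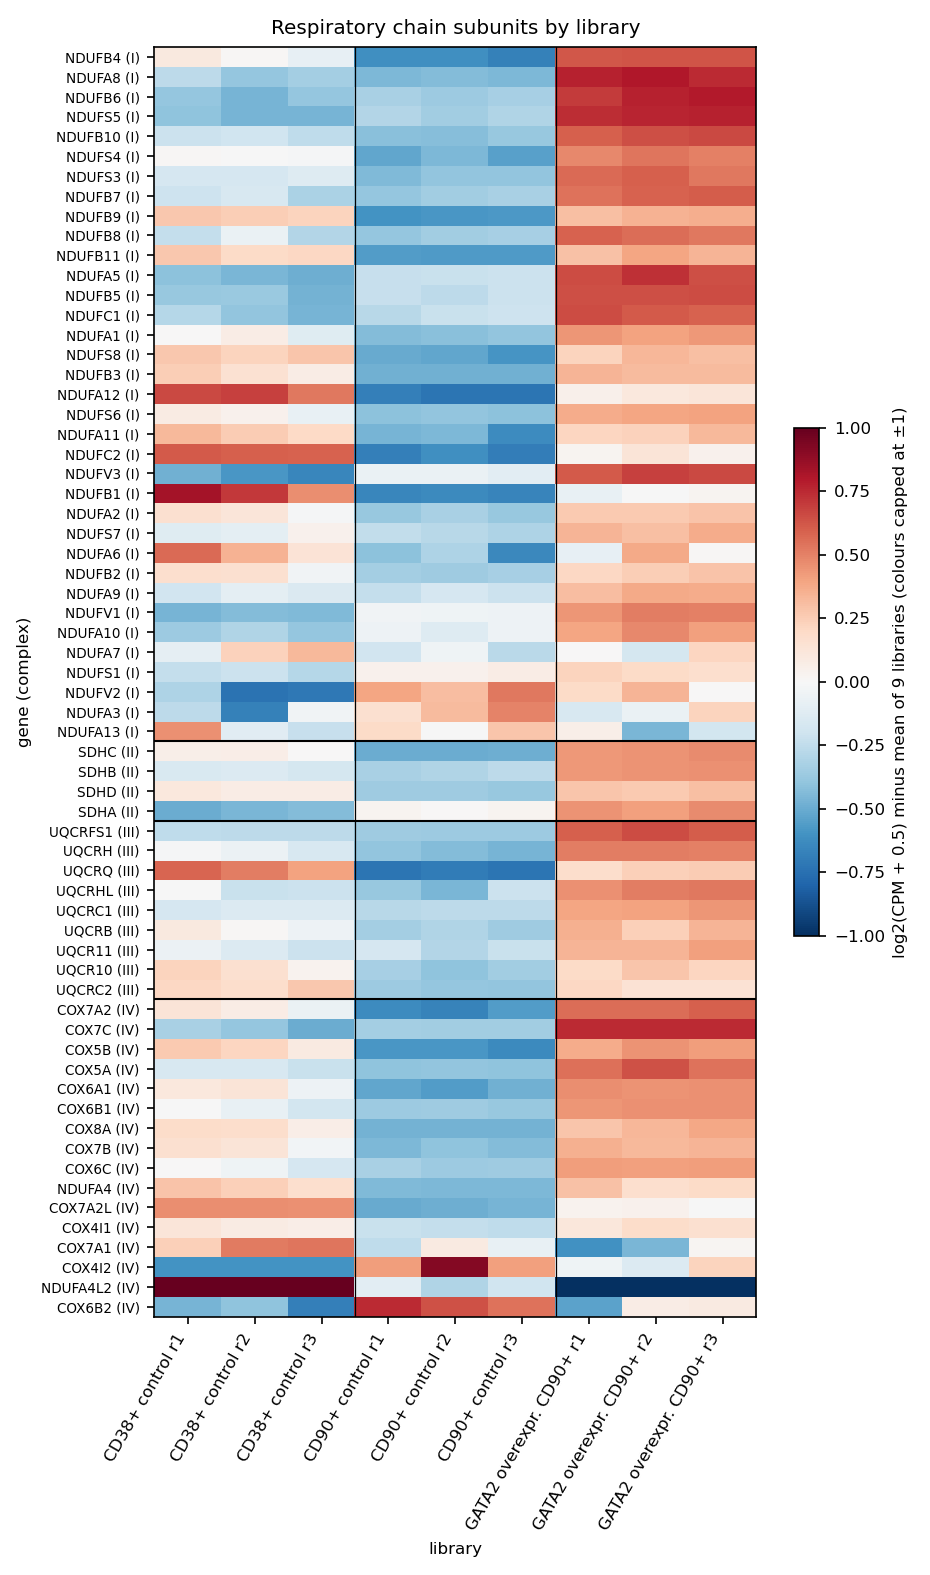
Level of 64 of the tested subunit genes in each of 9 libraries, as log2(CPM + 0.5) minus its mean over the libraries, with genes ordered within complexes I to IV by the change between GATA2 overexpression and control CD90+ cells and colours capped at ±1. The 3 GATA2 overexpression columns are red for most genes, and the last genes of complex IV (COX7A1, COX4I2, NDUFA4L2 and COX6B2) run otherwise; the contrast between the control columns depends on the TMM scaling.

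The comparison of CD90+ control with CD38+ control gave the opposite lean, but it depended on the scaling. With TMM, 13 genes were higher in CD90+ cells, 44 were lower and 8 did not pass, against 80.4% of all genes called, 41.1% higher and 39.3% lower. The median log2 change was -0.33, against 0.03 for all genes. Among genes of at least 50 CPM 25.8% were called higher and 65.4% lower with a median of -0.32, and the 49 subunits of that abundance (9 higher, 38 lower, median -0.35) lay close to it. With library size alone 31 were higher and 23 lower and the median turned to 0.08, as the median of all genes shifted by 0.41, and 20 subunits changed sign. Of all genes called, 51.2% were higher with TMM and 71.2% with library size alone. A change of scaling shifts every gene alike, so the distance of the subunits' median from that of all genes, -0.36, does not depend on it. That distance was -0.30 with length and GC trend removed, -0.29 over genes of at least 1 CPM and -0.44 with no filter.

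Against CD38+ control, GATA2-OE cells had 50 subunit genes higher, 7 lower and 8 that did not pass. The background was 83.2% called, 43.3% higher and 39.9% lower, and among genes of at least 50 CPM 43.7% higher and 50.2% lower. The median was 0.44 for the subunits, 0.07 for all genes and -0.08 for genes of at least 50 CPM. It moved to 0.30 with length and GC trend removed and to 0.60 with library size alone. The comparisons share libraries, so their calls are not independent. Side by side and under TMM, 33 genes were lower in CD90+ than CD38+ control, higher in GATA2-OE than CD90+ control and higher in GATA2-OE than CD38+ control, and 9 were higher in all 3 comparisons. The share of all genes with such patterns was not computed, so they are not read as particular to the subunits. Among genes of at least 50 CPM 65.4% were called lower in CD90+ than CD38+ control. In GATA2-OE against CD90+ control 63.6% of them were called higher. A group of 5 (NDUFB1, NDUFC2, NDUFA12, UQCRQ and COX7A2L, chosen after their values were seen) was lower in CD90+ control and, although higher in GATA2-OE than in CD90+ control, was still below CD38+ control. The rise of NDUFB1 against CD90+ control was lost with length and GC trend removed (log2 0.07, edgeR adjusted p = 0.231).

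**Figure D3:**
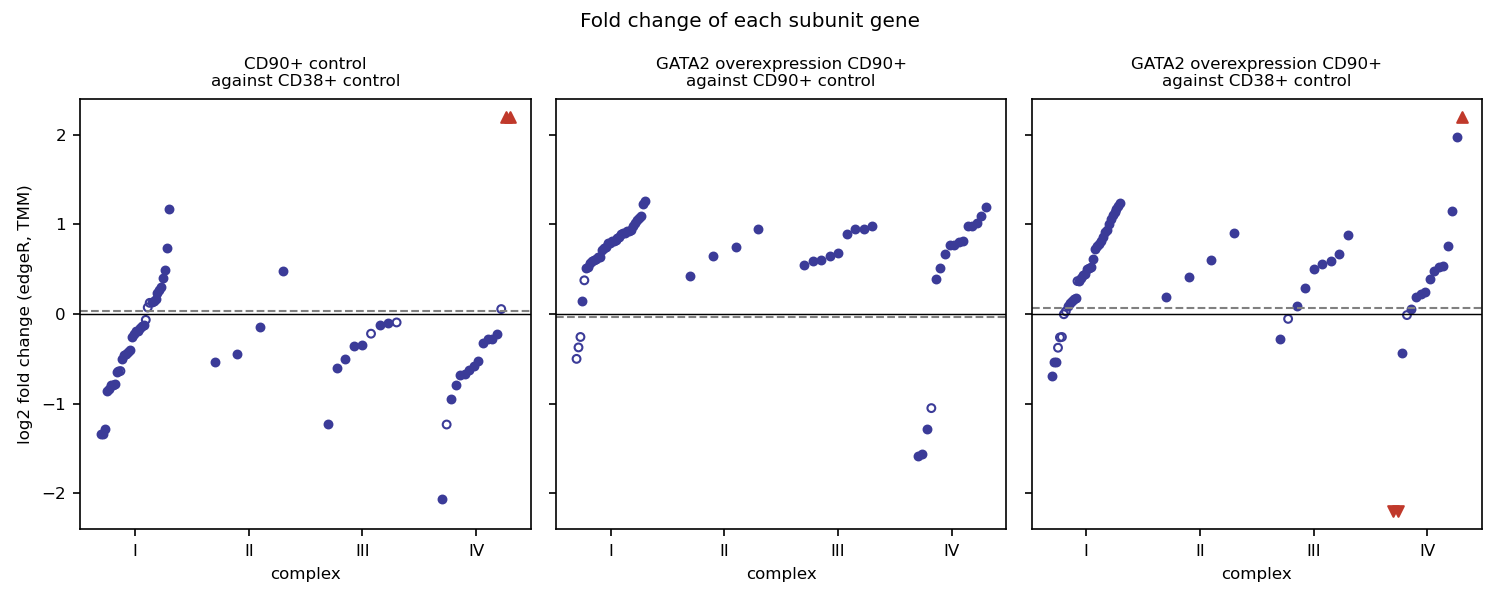
Fitted log2 fold change (edgeR, TMM scaling) of each tested subunit gene in 3 comparisons, by complex; filled points passed the adjusted p of 0.05, open points did not, triangles lie beyond the axis, and the dashed line is the median of all genes tested. In the middle panel most points of all 4 complexes lie above the line; the left panel's zero moves by 0.41 with library-size scaling.

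Complex I has 7 nuclear core subunits, which carry its flavin and iron-sulfur clusters. With GATA2 overexpression 6 of the 7 rose against CD90+ control. NDUFS3, in the matrix arm, was at 114, 115 and 117 CPM in the CD38+ controls, 94.5, 97.4 and 97.8 in the CD90+ controls and 190.2, 195 and 186 in the GATA2-OE libraries. The GATA2-OE libraries lay above the rest without overlap (log2 fold change 0.98 ± 0.03 (SE), edgeR adjusted p = 3.73e-15 against CD90+ control). NDUFS8 (1.77-fold) and NDUFS7 (1.53-fold), which line the path of electrons to ubiquinone, rose less.

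The rises of NDUFV1 and NDUFS1 were smaller still. NDUFV1, which binds NADH and the flavin, was at 151, 154 and 154 CPM in the CD38+ controls, 204, 202 and 202 in the CD90+ controls and 283, 298 and 296 in the GATA2-OE libraries. It was higher in CD90+ than in CD38+ control (log2 fold change 0.41 ± 0.03 (SE), edgeR adjusted p = 1.60e-10) and higher again in GATA2-OE cells (log2 fold change 0.53 ± 0.02 (SE), edgeR adjusted p = 3.65e-12). NDUFS1, the largest core subunit, was at 68.3, 69.7 and 66.1 CPM in the CD38+ controls, 83.3, 83.2 and 85.1 in the CD90+ controls and 94.5, 92.2 and 90.7 in the GATA2-OE libraries. Its rise against CD90+ control was the smallest of the 57, 1.10-fold (log2 fold change 0.14 ± 0.03 (SE), edgeR adjusted p = 8.71e-04), and turned to a log2 value of -0.11 with library size alone. The call of NDUFS1 was lost with upper-quartile factors (log2 0.027) and over genes of at least 1 CPM (0.045). NDUFV2, an iron-sulfur partner of NDUFV1, had few counts, at 2.18, 1.5 and 1.53 CPM in the CD38+ controls, 3.87, 3.61 and 4.29 in the CD90+ controls and 3.31, 3.71 and 2.83 in the GATA2-OE libraries, and did not pass against CD90+ control (log2 fold change -0.26 ± 0.18 (SE), edgeR adjusted p = 0.193). It was called lower there with length and GC trend removed (log2 -0.72) and with library size alone (-0.50).

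The 29 accessory subunits of complex I, which stabilise the complex and help its assembly, gave 26 rises and no fall in GATA2-OE against CD90+ control. NDUFB4 (chr3:120596309-120602500, plus strand, as all gene positions here in GRCh38 and from GENCODE 29), in the membrane arm, was at 322, 303 and 285 CPM in the CD38+ controls, 197, 196 and 188 in the CD90+ controls and 463, 465 and 466 in the GATA2-OE libraries. Its GATA2-OE values lay above all 6 control libraries and its CD90+ values below all others. It rose 2.4-fold against CD90+ control (log2 fold change 1.26 ± 0.03 (SE), edgeR adjusted p = 2.73e-15). Close behind were NDUFA8 (2.34-fold) and NDUFB10 (2.07-fold), both with cysteine motifs typical of intermembrane-space proteins, NDUFB6 (2.14-fold) and NDUFS4 (2.02-fold), a late-assembling subunit known from Leigh syndrome.

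NDUFS5 (chr1:39026318-39034636, plus strand), another protein of the intermembrane face, was at 205, 197 and 197 CPM in the CD38+ controls, 222, 213 and 221 in the CD90+ controls and 452, 461 and 463 in the GATA2-OE libraries. Its control groups were close together and the GATA2-OE libraries were well above them, at 2.10-fold CD90+ control (log2 fold change 1.07 ± 0.03 (SE), edgeR adjusted p = 4.27e-16). NDUFV3 (chr21:42879644-42913304, plus strand), an accessory subunit at the flavin end, was at 38.9, 36.2 and 34.4 CPM in the CD38+ controls, 52.0, 51.9 and 50.5 in the CD90+ controls and 83.5, 88.0 and 86.5 in the GATA2-OE libraries. It was higher in CD90+ than CD38+ control (log2 fold change 0.49 ± 0.05 (SE), edgeR adjusted p = 2.47e-08), as were its neighbours NDUFV1 and NDUFS1. Against CD38+ control it had the largest rise of complex I in GATA2-OE cells, 2.36-fold (log2 fold change 1.24 ± 0.05 (SE), edgeR adjusted p = 6.06e-14). NDUFA5 (2.19-fold) and NDUFA10 (1.72-fold), accessory subunits as well, were also higher in all 3 comparisons.

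Another set of accessory genes was high in CD38+ cells. NDUFA12 (chr12:94897055-95003770, minus strand), the paralogue of the assembly factor NDUFAF2, was at 511, 519 and 467 CPM in the CD38+ controls, 201, 195 and 195 in the CD90+ controls and 335, 349 and 351 in the GATA2-OE libraries. The 3 groups did not overlap. It was 2.54-fold lower in CD90+ than CD38+ control (log2 fold change -1.34 ± 0.03 (SE), edgeR adjusted p = 8.46e-16) and 1.45-fold lower in GATA2-OE than CD38+ control (log2 fold change -0.53 ± 0.03 (SE), edgeR adjusted p = 1.72e-10). NDUFB1 (chr14:92116122-92121917, minus strand), a small subunit of the membrane arm, was at 135, 124 and 105 CPM in the CD38+ controls, 48.1, 48.6 and 47.8 in the CD90+ controls and 72.2, 75.7 and 77.2 in the GATA2-OE libraries, with the same order of groups. It was 1.62-fold lower in GATA2-OE than CD38+ control (log2 fold change -0.70 ± 0.06 (SE), edgeR adjusted p = 2.31e-08). NDUFC2 followed the order too, at 48.1 ± 0.440 CPM in the CD38+ controls, 19.8 ± 0.599 in the CD90+ controls and 33.2 ± 1.21 in GATA2-OE cells (mean ± SD, n = 3).

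NDUFA11 and NDUFA6 did not pass between GATA2-OE cells and CD38+ control with TMM and all libraries. NDUFA11 was at 22, 20.9 and 20.1 CPM in the CD38+ controls, 12.5, 12.6 and 11.1 in the CD90+ controls and 20.4, 20.5 and 22 in the GATA2-OE libraries, with overlap between the first and last groups and a log2 difference of -0.00 ± 0.07 (SE). NDUFA6 was at 11.9, 10.1 and 8.64 CPM in the CD38+ controls, 5.77, 6.22 and 4.83 in the CD90+ controls and 7.36, 10.3 and 7.91 in the GATA2-OE libraries, again with overlap (log2 fold change -0.26 ± 0.15 (SE), edgeR adjusted p = 0.122). NDUFA6 was called lower than CD38+ control with length and GC trend removed (log2 -0.47), without CD38+ control library 3 (-0.36) and without GATA2-OE library 2 (-0.41). Against CD90+ control both rose, 1.73-fold and 1.52-fold, and the rise of NDUFA6 was lost with length and GC trend removed (log2 0.33, edgeR adjusted p = 0.0533). A missed threshold does not show that their levels were equal.

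A pair of complex I genes passed in no comparison with TMM. NDUFA13, also known as GRIM-19, was at 1.60, 0.909 and 0.801 CPM in the CD38+ controls, 1.24, 1.02 and 1.35 in the CD90+ controls and 1.08, 0.609 and 0.843 in the GATA2-OE libraries, and the groups overlapped throughout. With library size alone NDUFA13 was called lower in GATA2-OE than CD90+ control (log2 -0.75, edgeR adjusted p = 0.0329). NDUFA7 was at 0.479, 0.722 and 0.801 CPM in the CD38+ controls, 0.412, 0.508 and 0.362 in the CD90+ controls and 0.542, 0.424 and 0.707 in the GATA2-OE libraries, with overlap as well. Both had low counts, and much of their exons is shared with other annotated genes on the same strand, 32.9% for NDUFA13 and 75.9% for NDUFA7. NDUFA3 (2.27 ± 0.602 CPM in the CD38+ controls, 3.79 ± 0.496 in the CD90+ controls and 2.93 ± 0.485 in GATA2-OE cells, mean ± SD, n = 3) passed in CD90+ against CD38+ control (log2 fold change 0.74 ± 0.20 (SE), edgeR adjusted p = 0.00303) and, with TMM and all libraries, in neither comparison with GATA2-OE cells. Against CD90+ control it was called lower with library size alone (log2 -0.62), upper-quartile factors (-0.49), genes of at least 1 CPM (-0.47), length and GC trend removed (-0.50) and without GATA2-OE library 3 (-0.52). Against CD38+ control NDUFA3 was called higher with library size alone (0.53), with upper-quartile factors (0.52) and without CD38+ control library 3 (0.56). How reads in shared exons were counted is not given in the sources used here, so these levels are uncertain.

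Complex II has 4 subunits, all nuclear, and links the Krebs cycle to the chain. SDHA (chr5:218241-256700, plus strand), the flavoprotein that oxidises succinate, was at 141, 144 and 147 CPM in the CD38+ controls, 202, 199 and 202 in the CD90+ controls and 272, 264 and 275 in the GATA2-OE libraries. The 3 groups rose in that order without overlap (log2 fold change 0.48 ± 0.03 (SE), edgeR adjusted p = 2.22e-11 for CD90+ against CD38+ control; log2 fold change 0.43 ± 0.03 (SE), edgeR adjusted p = 8.63e-11 for GATA2-OE against CD90+ control). The membrane anchors ran differently between the controls. SDHC (chr1:161314257-161375340, plus strand) was at 240.1, 242 and 231 CPM in the CD38+ controls, 164, 164 and 164 in the CD90+ controls and 312, 315 and 321 in the GATA2-OE libraries, lowest in CD90+ control (log2 fold change -0.54 ± 0.02 (SE), edgeR adjusted p = 2.31e-12) and highest in GATA2-OE cells (log2 fold change 0.95 ± 0.02 (SE), edgeR adjusted p = 1.36e-15). SDHD, the other anchor, had the same order under TMM (its log2 value for GATA2-OE against CD38+ control was -0.07 with length and GC trend removed) and rose 1.56-fold with GATA2 overexpression.

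SDHB, whose promoter is printed above, was at 194, 196 and 191 CPM in the CD38+ controls, 172, 175 and 180.1 in the CD90+ controls and 292, 294 and 296 in the GATA2-OE libraries. It rose 1.67-fold against CD90+ control (log2 fold change 0.74 ± 0.02 (SE), edgeR adjusted p = 3.06e-14). Its fall between CD38+ and CD90+ control was small (log2 -0.14) and turned to 0.27 with library size alone and 0.12 with upper-quartile scaling. SDHA was thus the one member of complex II called higher in CD90+ than CD38+ control, and the other 3 were called lower under TMM.

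Complex III takes electrons from ubiquinol through the Rieske protein, UQCRFS1, to cytochrome c. UQCRFS1 (chr19:29205321-29213541, minus strand) was at 292, 290.3 and 289.7 CPM in the CD38+ controls, 271, 269 and 269.6 in the CD90+ controls and 526, 545 and 529 in the GATA2-OE libraries. The control groups lay close together and the GATA2-OE libraries were 1.97-fold CD90+ control (log2 fold change 0.98 ± 0.02 (SE), edgeR adjusted p = 2.37e-16), the largest rise of the complex. The difference between controls was a log2 value of -0.11, which turned to 0.30 with library size alone and 0.16 with upper-quartile scaling. UQCRC1 and UQCRC2, the large matrix-side subunits related to processing peptidases, rose 1.60-fold and 1.46-fold against CD90+ control. The level of UQCRC2 in GATA2-OE cells overlapped CD38+ control (338 ± 8.21 against 351 ± 10.9 CPM, mean ± SD, n = 3). It was called lower than CD38+ control with length and GC trend removed (log2 -0.19), over genes of at least 1 CPM (-0.07), without CD38+ control library 2 (-0.07) and without GATA2-OE library 1 (-0.07). With library size alone (0.11) and upper-quartile factors (0.09) it was called higher, so its direction depended on the scaling.

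UQCRQ (chr5:132866560-132868031, plus strand), a small subunit near the ubiquinone site, stood apart in the complex. It was at 239, 228 and 212 CPM in the CD38+ controls, 96.2, 98.5 and 96.3 in the CD90+ controls and 180.3, 189 and 190.3 in the GATA2-OE libraries. The groups did not overlap, and the fall from CD38+ to CD90+ control was 2.33-fold (log2 fold change -1.22 ± 0.04 (SE), edgeR adjusted p = 8.48e-15). In GATA2-OE cells it was higher than in CD90+ control (log2 fold change 0.94 ± 0.04 (SE), edgeR adjusted p = 3.95e-13) and lower than in CD38+ control (log2 fold change -0.28 ± 0.04 (SE), edgeR adjusted p = 2.18e-06). The gene shares 30% of its exon bases with GDF9 on the opposite strand, and the use of strand in counting is not given in the sources used here.

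UQCRH (chr1:46303631-46316776, plus strand) was at 342, 331 and 309 CPM in the CD38+ controls, 262, 255 and 250.5 in the CD90+ controls and 493, 492 and 491 in the GATA2-OE libraries. The GATA2-OE values were nearly identical and above all controls (log2 fold change 0.94 ± 0.03 (SE), edgeR adjusted p = 3.04e-14 against CD90+ control). Its retrocopy UQCRHL, a near-identical gene, was at 8.69, 7.41 and 7.41 CPM in the CD38+ controls, 6.58, 6.2 and 7.41 in the CD90+ controls and 12.1, 12.6 and 12.7 in the GATA2-OE libraries and rose by a like factor, 1.86-fold against 1.92-fold. Reads of such copies can be split between them, so UQCRHL is uncertain.

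In complex IV the largest rise was that of COX7A2, and it was followed by COX7C and COX5B. COX7A2 (chr6:75237675-75250323, minus strand), a membrane subunit, was at 588, 566 and 514 CPM in the CD38+ controls, 348, 339 and 365 in the CD90+ controls and 795, 795 and 815 in the GATA2-OE libraries. CD90+ control was lowest and GATA2-OE highest, without overlap, and the rise against CD90+ control was 2.28-fold (log2 fold change 1.19 ± 0.04 (SE), edgeR adjusted p = 2.79e-14). COX7C (chr5:86617904-86620962, plus strand), another small membrane subunit, was at 361, 348 and 321 CPM in the CD38+ controls, 358, 356 and 356 in the CD90+ controls and 762, 763 and 762 in the GATA2-OE libraries. Its control groups overlapped (log2 fold change 0.05 ± 0.03 (SE), edgeR adjusted p = 0.128), although it was called higher in CD90+ control under 8 alternatives, with log2 values from 0.09 without CD38+ control library 1 to 0.46 with library size alone. The GATA2-OE cells were 2.22-fold CD38+ control (log2 fold change 1.15 ± 0.03 (SE), edgeR adjusted p = 1.59e-15), the largest such rise among complex IV genes of at least 5 CPM. COX5B was at 517, 501 and 458 CPM in the CD38+ controls, 288, 288 and 278 in the CD90+ controls and 559, 589 and 576 in the GATA2-OE libraries and rose 2.02-fold against CD90+ control.

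The other common subunits rose together. COX5A (1.97-fold), COX6A1 (1.97-fold), COX6B1 (1.76-fold), COX8A (1.75-fold), COX7B (1.71-fold) and COX6C (1.70-fold) all passed against CD90+ control. COX4I1, the ubiquitous form of the subunit through which ATP inhibits the enzyme, moved least of them, at 616, 598 and 593 CPM in the CD38+ controls, 486, 479 and 473 in the CD90+ controls and 611, 642 and 631 in the GATA2-OE libraries, 1.31-fold against CD90+ control (log2 fold change 0.39 ± 0.02 (SE), edgeR adjusted p = 2.37e-10). Against CD38+ control its log2 change was 0.06, or -0.14 with length and GC trend removed, and its libraries overlapped. COX7A2L, which ties complex IV into supercomplexes with complex III, was at 179, 178 and 177 CPM in the CD38+ controls, 91.2, 92.2 and 93.6 in the CD90+ controls and 133, 134 and 129 in the GATA2-OE libraries. It was highest in CD38+ control, 1.35-fold above GATA2-OE cells (log2 fold change -0.43 ± 0.03 (SE), edgeR adjusted p = 5.06e-11).

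Several complex IV subunits come as a common and a restricted isoform, and some of the restricted forms were lower with GATA2 overexpression. NDUFA4L2 (chr12:57234903-57240715, minus strand), known as a hypoxia-induced gene, was at 24.4, 25.1 and 25.7 CPM in the CD38+ controls, 6.44, 5.55 and 6 in the CD90+ controls and 2.2, 2.25 and 1.63 in the GATA2-OE libraries. Each group lay below the one before with no overlap. The falls were 4.18-fold from CD38+ to CD90+ control (log2 fold change -2.06 ± 0.11 (SE), edgeR adjusted p = 9.57e-12) and 2.95-fold from CD90+ control to GATA2-OE (log2 fold change -1.56 ± 0.12 (SE), edgeR adjusted p = 4.07e-09). Its common partner NDUFA4 was at 641, 618 and 590.2 CPM in the CD38+ controls, 386, 384 and 384 in the CD90+ controls and 642, 591 and 600.3 in the GATA2-OE libraries, so that the L2 form made up 6.17 ± 0.383%, 2.45 ± 0.170% and 0.532 ± 0.0887% (mean ± SD, n = 3) of the length-scaled counts of the pair.

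COX4I2 (chr20:31637888-31645006, plus strand), the oxygen-responsive isoform best known from lung, had 0 counts in all CD38+ control libraries, against 0.511, 0.925 and 0.503 CPM in CD90+ control and 0.232, 0.185 and 0.381 CPM in GATA2-OE libraries. With a floor of 3 counts over the CD38+ group it was at least 25.1-fold higher in CD90+ control (102 counts) and at least 10.2-fold higher in GATA2-OE cells (30 counts). The fall from CD90+ control to GATA2-OE (log2 fold change -1.28 ± 0.47 (SE), edgeR adjusted p = 0.0225) was lost without CD90+ library 2 (adjusted p = 0.152 from edgeR), without GATA2-OE library 1 (0.0654), without GATA2-OE library 2 (0.0828) and with the replicate number as a block (0.0539). Even in CD90+ control it made up 0.344 ± 0.128% of the COX4 pair.

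COX6B2, the testis isoform of COX6B, was at 0.0798, 0.107 and 0 CPM in the CD38+ controls, 0.845, 0.744 and 0.664 in the CD90+ controls and 0.0517, 0.344 and 0.353 in the GATA2-OE libraries. It was higher in CD90+ than CD38+ control (log2 fold change 3.56 ± 0.68 (SE), edgeR adjusted p = 1.37e-04) and lower in GATA2-OE than CD90+ control (log2 fold change -1.59 ± 0.54 (SE), edgeR adjusted p = 0.0131), the last of which was lost without GATA2-OE library 1 (edgeR adjusted p = 0.0598). Its difference between GATA2-OE and CD38+ control (log2 fold change 1.97 ± 0.79 (SE), edgeR adjusted p = 0.0300) was lost without CD38+ control library 3 (0.106), GATA2-OE library 2 (0.0979) or GATA2-OE library 3 (0.103). COX7A1, the heart and skeletal muscle form, was at 0.399, 0.588 and 0.601 CPM in the CD38+ controls, 0.137, 0.308 and 0.221 in the CD90+ controls and 0, 0.0530 and 0.272 in the GATA2-OE libraries. In the main fit it passed for GATA2-OE against CD38+ control alone (log2 fold change -2.28 ± 0.70 (SE), edgeR adjusted p = 0.00655). Against CD90+ control it was called lower without GATA2-OE library 3 (edgeR adjusted p = 0.0108) and with limma voom (limma voom adjusted p = 0.0462). In CD90+ against CD38+ control it was called lower in a fit of the 2 groups alone (edgeR adjusted p = 0.0194) and with limma voom (limma voom adjusted p = 0.0416). COX8C, another testis isoform, had 0, 9 and 9 counts in the 3 groups and was not tested. Each of these 4 minor forms made up under 0.5% of its pair in every library.

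**Figure D4:**
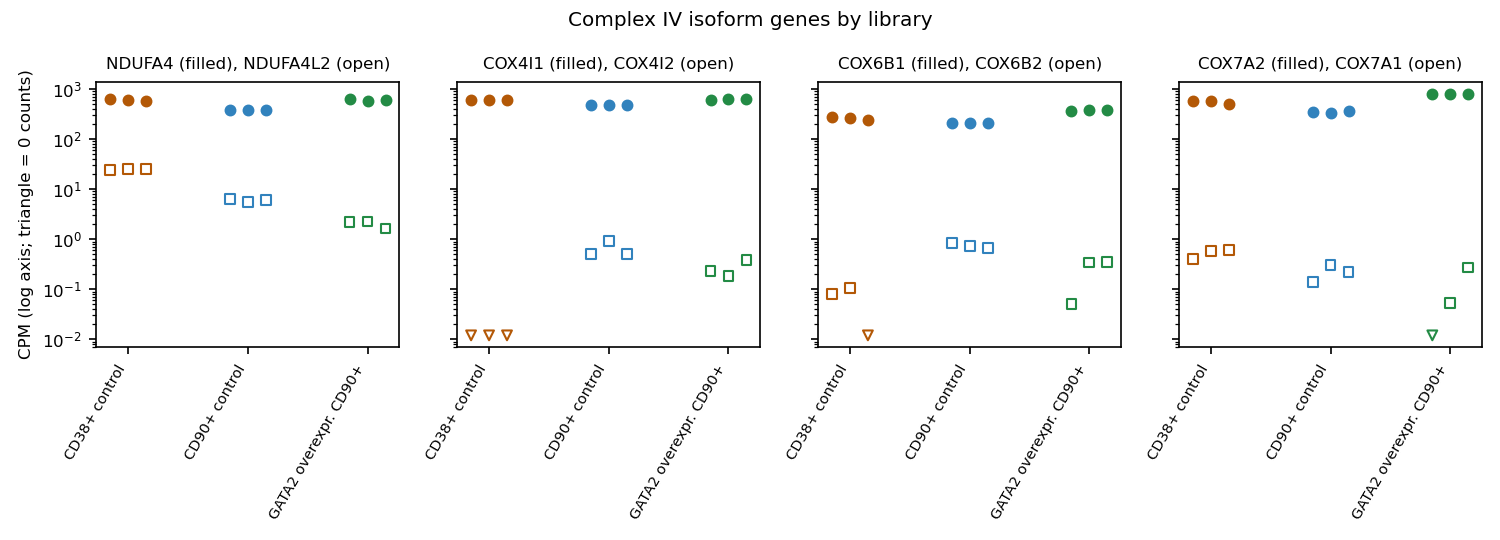
CPM (TMM-scaled, log axis) of 4 pairs of complex IV genes in each of 9 libraries, the common form as filled circles and the restricted form as open squares, with triangles for 0 counts. NDUFA4L2 steps down from 25.1 to 6 and 2.03 CPM on average across the groups, while COX4I2 is at 0 counts in CD38+ control alone.

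As a share of all counts, a measure free of TMM, the 66 genes together held 1.12, 1.10 and 1.05% of all gene counts in the CD38+ controls, 1.10, 1.10 and 1.10% in the CD90+ controls and 1.62, 1.65 and 1.65% in the GATA2-OE libraries. The means were 1.09 ± 0.0371%, 1.10 ± 0.00290% and 1.64 ± 0.0144% (SD, n = 3). The GATA2-OE libraries lay above all 6 controls, and the control groups overlapped. GATA2-OE held 1.49-fold the share of CD90+ control and 1.5-fold that of CD38+ control (exact permutation test, two-sided, p = 0.1 for each, the smallest that 3 against 3 libraries allow). Between the controls the ratio was 1 (exact permutation p = 1).

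By complex, the shares in CD38+ control, CD90+ control and GATA2-OE cells were 0.411 ± 0.0123%, 0.418 ± 0.00136% and 0.636 ± 0.00897% for complex I and 0.418 ± 0.0199%, 0.400 ± 0.00131% and 0.611 ± 0.00327% for complex IV. Complex III had 0.197 ± 0.00456%, 0.201 ± 3.31e-04% and 0.286 ± 0.00192%. Complex II was the one complex whose share was also higher in CD90+ than in CD38+ control libraries without overlap, with 0.0678 ± 5.97e-04%, 0.0799 ± 6.84e-04% and 0.109 ± 0.00138% (exact permutation p = 0.1, again the smallest possible). Over TMM-scaled library sizes this difference turned to -0.00881 percentage points, and 3 of the 4 genes were called lower under TMM. The gain of GATA2-OE over CD90+ control was 1.52-fold for complex I, 1.36-fold for II, 1.42-fold for III and 1.53-fold for IV.

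**Figure D5:**
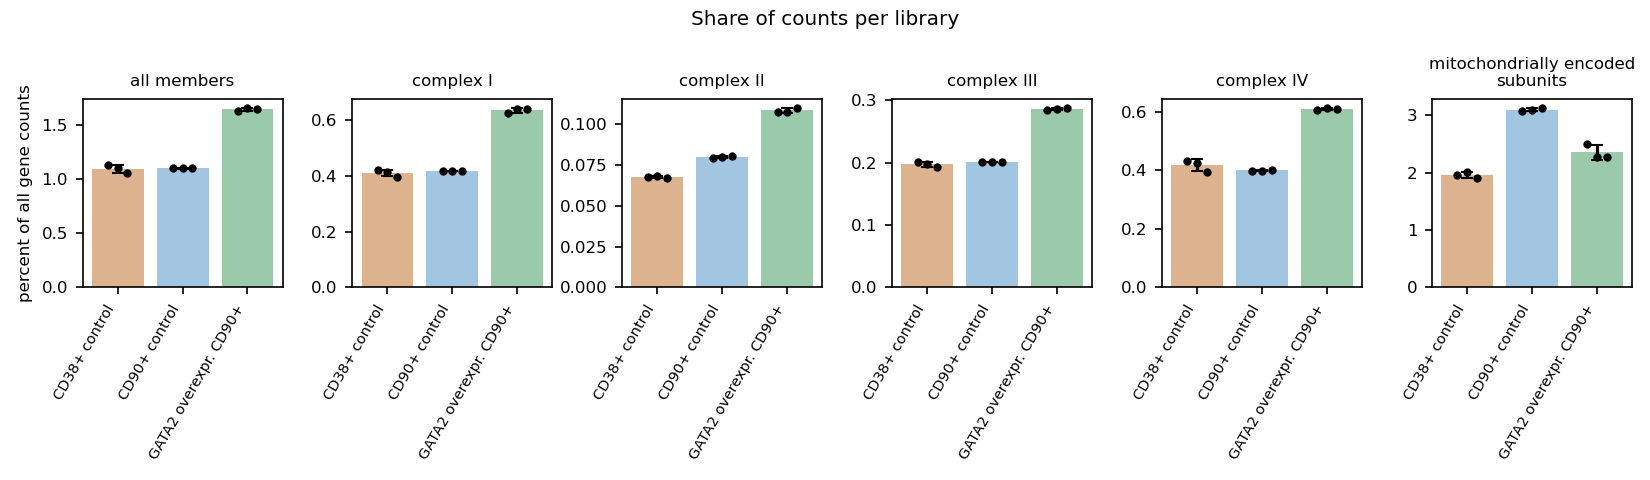
Percent of all gene counts in each library (points), with group means (bars from 0) and SD (error bars), for the 66 nuclear genes, for each complex and for the 13 mitochondrially encoded subunits. The nuclear bars step up to 1.64% in the GATA2 overexpression group from 1.09% and 1.10% in the controls, while the mitochondrially encoded bar is tallest in CD90+ control at 3.10%.

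The 13 subunits encoded by mitochondrial DNA did not follow. Their share was 1.96 ± 0.0551%, 3.10 ± 0.0296% and 2.35 ± 0.131% (SD, n = 3), highest in CD90+ control. With GATA2 overexpression 4 of 13 rose and 6 fell against CD90+ control, and 0 and 11 with library size alone. With TMM 38.0% of all genes were called higher and 39.6% lower, so the TMM counts lay near that background. Among genes of at least 50 CPM the shares were 63.6% and 29.0%. With library size alone 27.5% of all genes were called higher and 49.9% lower. MT-ND1, a complex I core subunit, fell 1.65-fold (log2 fold change -0.72 ± 0.04 (SE), edgeR adjusted p = 5.33e-12), and MT-CO1, the catalytic subunit of complex IV, rose 1.17-fold (log2 fold change 0.22 ± 0.03 (SE), edgeR adjusted p = 4.39e-06) but turned to -0.02 on the log2 scale with library size alone and -0.10 with length and GC trend removed.

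The ratio of mitochondrially encoded to nuclear subunit counts within a complex therefore changed. For complex I it was 2.03 ± 0.0458 in the CD38+ controls, 3.13 ± 0.0355 in the CD90+ controls and 1.19 ± 0.111 in GATA2-OE libraries, with no overlap. For complex III it was 1.27 ± 0.0343, 1.63 ± 0.0201 and 1.06 ± 0.0572. For complex IV it was 1.81 ± 0.0648, 3.12 ± 0.00982 and 1.84 ± 0.0829, and the GATA2-OE libraries overlapped CD38+ control. These are ratios of counts and are not scaled for transcript length.

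Genes that build and feed the chain were read from lists of assembly factors, carriers and enzymes. In GATA2-OE against CD90+ control, 15 of 15 complex I assembly factors rose, as did 4 of 4 for complex II, 6 of 6 for complex III and 4 of 4 for complex V, with median log2 changes of 0.71, 0.89, 0.84 and 0.74. For all these lists the background is 38.0% called higher and 39.6% lower over all genes, and 63.6% and 29.0% over genes of at least 50 CPM. NDUFAF3, an early complex I factor, rose 2.53-fold (log2 fold change 1.34 ± 0.03 (SE), edgeR adjusted p = 4.00e-17). SDHAF3 (2.14-fold), LYRM7 (2.25-fold), which serves the Rieske protein, and TMEM70 (1.95-fold), an ATP synthase factor, were the foremost of the other lists by p. Of 23 complex IV factors 19 rose and 2 fell, among them COA4 (2.47-fold higher) and the copper-pathway protein COX19 (1.41-fold lower).

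All 15 genes of the list of electron carriers and other subunits rose, including CYCS for cytochrome c (1.5-fold), CYC1 for cytochrome c1 (1.74-fold) and NDUFAB1, the acyl carrier protein of complex I (1.91-fold). Of 17 Krebs cycle and pyruvate dehydrogenase genes 12 rose and 2 fell, a share near the 63.6% of abundant genes, with MDH2, malate dehydrogenase, 1.85-fold higher and OGDH, of the oxoglutarate dehydrogenase complex, 1.52-fold lower. Of 32 genes of protein import, transport and cristae 28 rose and 4 fell. SLC25A5, an ADP/ATP carrier, rose 1.95-fold, and HSPA9, the matrix import chaperone, fell 1.36-fold.

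The 18 regulators of mitochondrial biogenesis did not move as a block, with 8 higher, 5 lower and a median of 0.04, close to all genes. MYC was 2.23-fold higher (log2 fold change 1.15 ± 0.03 (SE), edgeR adjusted p = 3.03e-15). The coactivator PPRC1 was 2.17-fold lower (log2 fold change -1.12 ± 0.05 (SE), edgeR adjusted p = 8.55e-13), and its levels were 33.6 ± 1.46 CPM in the CD38+ controls, 72.9 ± 2.55 in the CD90+ controls and 33.6 ± 1.34 in GATA2-OE cells (mean ± SD, n = 3). Of the factors whose motifs were counted above, the NRF1 transcript did not pass (log2 fold change -0.03 ± 0.07 (SE), edgeR adjusted p = 0.690; called lower at -0.28 with library size alone), GABPA was lower (log2 fold change -0.32 ± 0.07 (SE), edgeR adjusted p = 5.65e-04), its partner GABPB1 was 1.88-fold higher and YY1 was 1.18-fold higher (-0.01 on the log2 scale with library size alone). These 4 and CYCS and CYC1 were chosen after their values were seen.

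Between the controls the lists were mixed. In CD90+ against CD38+ control 6 complex I assembly factors were higher and 3 lower of 15, 8 and 11 of 23 for complex IV, 10 and 6 of 17 Krebs cycle genes, and 5 and 6 of 15 electron carriers. Their medians were 0.10, -0.10, 0.10 and -0.00. Assembly factors of complexes II, III and V had 1 and 2 of 4, 2 and 4 of 6, and 1 and 2 of 4, with medians of -0.05, -0.33 and -0.19. The background of this comparison was 41.1% higher and 39.3% lower over all genes. No difference between a list and the subunits was tested. Against CD38+ control, GATA2-OE cells had 15 of 15 complex I assembly factors higher, 14 of 17 Krebs cycle genes and 26 of 32 import and cristae genes, where 43.3% of all genes and 43.7% of those of at least 50 CPM were called higher.

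Summed levels of markers of other cell types differed between the groups. The summed level of 18 macrophage markers was 5146 to 5226 CPM in the CD38+ controls, 3264 to 3326 in the CD90+ controls and 1284 to 1339 in GATA2-OE libraries. For 17 mesenchymal markers, such as collagens, it was 228 to 235 CPM in the CD38+ controls, 1828 to 1852 in the CD90+ controls and 743 to 761 in GATA2-OE libraries, with POSTN and THY1 at 0 in CD38+ control. For 20 mast cell and granulocyte markers it was 11433 to 11860.4 CPM in the CD38+ controls, 2050.3 to 2078 in the CD90+ controls and 3375 to 3686 in GATA2-OE libraries. For 11 megakaryocyte markers it was 540.1 to 545 CPM in the CD38+ controls, 2590.2 to 2625 in the CD90+ controls and 4029.7 to 4149 in GATA2-OE libraries, and for 17 erythroid markers 394 to 404 CPM in the CD38+ controls, 1096 to 1119 in the CD90+ controls and 654 to 752 in GATA2-OE libraries, with AHSP at 0 in CD38+ control. Of 17 tested macrophage markers 9 were called higher and 7 lower in CD90+ than CD38+ control, although their sum was lower. Their median log2 change was 0.18, and the background there was 41.1% higher and 39.3% lower over all genes. Between GATA2-OE and CD90+ control, 15 of 17 tested macrophage and 16 of 17 mesenchymal markers were lower and 16 of 20 mast cell and granulocyte markers higher. Over all genes 38.0% were called higher and 39.6% lower. The mast cell and granulocyte list includes GATA2 itself, the overexpressed gene, in its counts and its sums. Of 16 tested erythroid markers 4 were higher and 10 lower, and of 11 megakaryocyte markers 6 and 3. Their part in the subunit results was not tested.

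Endothelial markers (14 genes) summed to 746 to 804 CPM in the CD38+ controls, 966 to 996 in the CD90+ controls and 1476 to 1493 in GATA2-OE libraries, epithelial and endoderm markers (15 genes) to 361 to 377 CPM in the CD38+ controls, 1145 to 1153 in the CD90+ controls and 723 to 729 in GATA2-OE libraries and cardiac and muscle markers (10 genes) to 9.41 to 10.7 CPM in the CD38+ controls, 148 to 151 in the CD90+ controls and 116 to 123 in GATA2-OE libraries. EMCN and MYH7 were at 0 in CD38+ control. Between GATA2-OE and CD90+ control 7 of 14 endothelial markers were called higher and 5 lower (median log2 change 0.09), although their sum was higher. Of 15 epithelial and endoderm markers 1 was higher and 13 lower, and of 9 tested cardiac and muscle markers 1 and 7. COX7A1, the muscle isoform of the set, had its highest levels in CD38+ control, where the cardiac and muscle sum was lowest. Its difference between the controls did not pass in the main fit. The part of the cells behind these markers in the subunit results was likewise not tested.

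Gene structure limits some of these values. Subunit genes are short, with a median exon length of 1604 bases against 2938 over all genes. Across the 65 tested genes length had a Spearman correlation of -0.28 with the change between GATA2-OE and CD90+ control (-0.21 across 16193 genes, which are not independent replicates). The correlation was 0.28 for CD90+ against CD38+ control (0.05 across all) and 0.11 for GATA2-OE against CD38+ control (-0.09 across all). Of the 66, 33 have named pseudogenes, 114 in all, with 17 for COX6C and 12 each for NDUFA5 and NDUFB4, and 16 share exon bases with another gene on the same strand, 7 of them over at least 30%. These 7 are NDUFA7, NDUFB8, NDUFV2, COX8A, NDUFA13, COX6A1 and COX6B2. Reads that fit several places can be dropped or split, so their levels are uncertain. Exon bases are also shared with genes on the opposite strand, most for NDUFS7 (55.1%), NDUFB2 (49.0%), NDUFB11 (44.9%) and NDUFA1 (44.5%). The use of strand in counting is not given in the sources used here, so these levels are uncertain as well.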

How the data were processed

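Gene counts were deposited by the authors as 1 table of raw counts with 3 columns per group. Per the submitters' processing notes, HISAT2, featureCounts and hg38 were used; for versions, annotation, strand setting and multi-mapping reads, the entry is: not given in the sources used here. All 9 columns were matched to samples by name, and 0 columns were left unused. Replicates were compared by chi-square over genes (3.96 to 7.84 per degree of freedom) and none was a repeat deposit. The labels do not state whether replicates were cultured separately.

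Counts were scaled by TMM, filtered with filterByExpr (minimum count 10, minimum total 15, 16232 genes kept) and fitted on group means over all 9 libraries in edgeR 4.0.16 under R 4.3.3 (quasi-likelihood F test), with Benjamini-Hochberg adjustment over all genes tested and a threshold of 0.05. The SE is the log2 change divided by the root of F. DESeq2 1.42.0 and limma 3.58.1 (voom) were alternatives. The fit was tested on simulated counts. CPM, TPM and shares were computed from the counts.

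The subunit set and the lists were chosen with earlier results of these data known. Of 277 list symbols 267 matched directly, 2 by a RefSeq synonym, and 8 were not analysed. Genes are named where they had the largest called change per complex and direction (groups apart, at least 5 CPM), were called nowhere, form an isoform pair, have the highest TPM of a complex or the lowest adjusted p of a list in GATA2-OE against CD90+ control; 31 more were chosen after their values were seen. Values of 1 gene of the set are not reported here, although it is in the counts and medians; it is left out of the plot of levels by library.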

Additional observations from a re-analysis of the deposited data

How the results depend on the processing

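Alternatives were other scalings, filters, fits and tools and leaving out each library. Of 264 recomputed counts, medians and share differences, 234 stayed within the limits set for them, 24 moved further and 6 changed sign. The limits were a 1.5-fold change for a count and, for a median, its spread between libraries. A share difference stayed if its sign held, whatever its size, so the 234 do not measure how stable these shares were. Of 3346 recomputed gene comparisons, 3158 kept direction and call, 52 lost the call, 61 gained it and 75 changed sign; the cause was not tested. The median log2 change of the subunits in CD90+ against CD38+ control was -0.28 with RLE factors and with DESeq2, -0.25 over genes of at least 1 CPM, -0.27 with length and GC trend removed and in a fit of the 2 groups alone, -0.066 with upper-quartile factors (24 higher) and 0.081 with library size only (31 higher, 23 lower). In GATA2-OE against CD90+ control it was 0.72 with RLE factors and with DESeq2, 0.70 over genes of at least 1 CPM, 0.66 with upper-quartile factors, 0.58 with length and GC trend removed (5 lower) and 0.52 with library size only (7 lower). In GATA2-OE against CD38+ control it was 0.60 with library size only, 0.59 with upper-quartile factors and 0.30 with length and GC trend removed (15 lower). Leaving out 1 library gave 1 to 5 lower in GATA2-OE against CD90+ control and medians of 0.45 to 0.49 in GATA2-OE against CD38+ control. The difference in percent of counts between CD90+ and CD38+ control, taken over TMM-scaled library sizes, was -0.304 for all 66 genes, -0.110 for complex I, -0.00881 for complex II and -0.0523 for complex III; leaving out 1 library gave -0.0156 to 0.0203 for all 66 genes over plain totals.

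Genes changed sign as follows, in log2 values. For CD90+ against CD38+ control with library size only, the values were SDHB 0.27, UQCRFS1 0.30, UQCRH 0.055, COX4I1 0.081, COX6B1 0.13, SDHAF3 0.18, LYRM7 0.059, MDH2 0.31, NDUFA8 0.29, NDUFB10 0.22, UQCRC1 0.29, UQCRHL 0.19, NDUFS3 0.15, NDUFS7 0.19, COX5A 0.19, COX6C 0.13, CYCS 0.12, CYC1 0.13, NRF1 0.24, GABPA 0.34, YY1 0.14 and GABPB1 0.089. For CD90+ against CD38+ control with upper-quartile factors, the values were SDHB 0.12, UQCRFS1 0.16, SDHAF3 0.030, MDH2 0.16, NDUFA8 0.14, NDUFB10 0.076, UQCRC1 0.15, UQCRHL 0.043, NDUFS3 0.0057, NDUFS7 0.043, COX5A 0.044, NRF1 0.091 and GABPA 0.19. For CD90+ against CD38+ control with length and GC trend removed, the value was GABPA 0.032. For CD90+ against CD38+ control with genes of at least 1 CPM, the value was GABPA 0.010. For CD90+ against CD38+ control without 1 library, the ranges were NDUFA13 -0.063 to 0.49 and MT-ND1 -0.020 to 0.036. For GATA2-OE against CD90+ control with library size only, the values were MT-CO1 -0.024, NDUFS1 -0.11 and YY1 -0.013. For GATA2-OE against CD90+ control with length and GC trend removed, the values were MT-CO1 -0.096 and NRF1 0.022. For GATA2-OE against CD90+ control without 1 library, the ranges were NRF1 -0.12 to 0.038. For GATA2-OE against CD38+ control with library size only, the values were NDUFA4 0.15, PPRC1 0.16, NDUFA11 0.16, UQCRC2 0.11 and YY1 0.13. For GATA2-OE against CD38+ control with upper-quartile factors, the values were NDUFA4 0.14, PPRC1 0.15, NDUFA11 0.15, UQCRC2 0.094 and YY1 0.12. For GATA2-OE against CD38+ control with length and GC trend removed, the values were COX4I1 -0.14, PPRC1 0.27, NDUFA11 0.17, NDUFS8 -0.045, SDHD -0.067 and YY1 0.14. For GATA2-OE against CD38+ control with no filter on low counts, the values were NDUFA4 0.0017, PPRC1 0.013 and NDUFA11 0.011. For GATA2-OE against CD38+ control without 1 library, the ranges were NDUFA4 -0.043 to 0.019, PPRC1 -0.029 to 0.035 and NDUFA11 -0.037 to 0.035.

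With the replicate number as a block, 13 subunits were higher and 44 lower in CD90+ against CD38+ control (median -0.33), 57 and 2 in GATA2-OE against CD90+ control (0.77) and 50 and 7 in GATA2-OE against CD38+ control (0.44). Deviations of same-numbered libraries correlated between -0.03 and 0.03, as did those of differently numbered ones. No pairing by number was seen, but such values cannot show whether same-numbered libraries were cultured or prepared together. Depth limits the genes under about 1 CPM (COX4I2, COX6B2, COX7A1, COX8C, NDUFA7): the calls of COX4I2 in GATA2-OE against CD90+ control and of COX6B2 in GATA2-OE against either control were lost without single libraries, and their other calls and that of COX7A1 in GATA2-OE against CD38+ control were not.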
